A study of Chlorocebus aethiops with 12 samples.

Results

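MDFIC was compared with no MDFIC in cells that received no hormone, on 6 of the 12 arrays of the series, chosen by their labels. COS-1 cells derive from the kidney of the African green monkey and resemble fibroblasts. All cultures, controls included, received S211A, a form of the glucocorticoid receptor mutated at a phosphorylation site, brought in with FuGENE6. The cultures of the MDFIC group received MDFIC as well. The control group, S211A vehicle, and the MDFIC group, S211A+MDFIC vehicle, held 3 biological replicates each per the labels, and both were given vehicle for 6 h in medium with charcoal-stripped serum. The other 6 arrays, S211A Dex and S211A+MDFIC Dex with 3 each, came from cells given 100 nM dexamethasone (Dex) for 6 h, and served to estimate the spread and to read the same transcripts on arrays outside the comparison. The plasmids enter only a part of the cells in a transient transfection, so that each level is an average over cells with and without them.

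The glucocorticoid receptor is a transcription factor that resides mainly in the cytoplasm, bound by chaperones, until a steroid binds it and it moves into the nucleus. Phosphorylation at the serine that S211A replaces with alanine rises when hormone binds, and accompanies an active receptor. MDFIC belongs to the I-mfa family of cysteine-rich regulators, which bind transcription factors and other proteins, and it has been described as a partner of the receptor without ligand. COS-1 cells carry the large T antigen of SV40, which copies plasmids that hold the SV40 origin.

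The vehicle arrays compare cultures with and without MDFIC before any steroid was added, on different slides. The arrays have probes of human sequence and were read with monkey RNA. The files name each probe by an accession and do not pair it with a gene symbol, so that results stand by accession, at most 2 accessions are named in each direction, and neither the level of the transfected genes by name nor markers of the cell type were read. A level is given as log2 of the background-subtracted intensity minus the 75th percentile of the array, so that 0 is that percentile. An accession was called when its difference passed a limma adjusted p of 0.05 over all 24586 accessions tested. Differences are S211A+MDFIC minus S211A throughout.

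The groups did not share a slide: the 3 S211A vehicle arrays lay on slide 1, and S211A+MDFIC vehicle replicates 1 and 2 lay on slide 2 and replicate 3 on slide 3. Between 68.8% and 72.1% of spots were well above background on the S211A vehicle arrays, against 77.0% to 78.1% on the S211A+MDFIC vehicle arrays. The S211A Dex replicate on slide 1 had 72.6%, and the S211A Dex replicates on slide 2 had 78.0% and 80.5%. Slide 1 holds replicate 1 alone in that condition, so that array and slide cannot be told apart. Arrays of a group correlated across accessions with r of 0.992 to 0.993 for S211A vehicle and 0.994 to 0.996 for S211A+MDFIC vehicle. The number of arrays limits the precision of every value.

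The highest rise was that of NM_199072, at the probe A_32_P120567. In S211A vehicle this probe read 96.7, 116 and 97.4 intensity units in replicates 1, 2 and 3. In S211A+MDFIC vehicle it read 51170, 39870 and 50770. It passed from the dim to the brightest range of the array, and the spread within a group was small beside the gap. Relative to the 75th percentile its level was -3.15 ± 0.04 (SD, n = 3) in S211A and 5.55 ± 0.10 (SD, n = 3) in S211A+MDFIC, a log2 difference of 8.70 (SE 0.18, limma adjusted p = 1.54e-08). Another probe of the same accession, A_23_P327022, gave 188, 215 and 184 intensity units in S211A and 224, 212 and 215 in S211A+MDFIC, a log2 difference of 0.02. A_23_P327022 was thus the brighter probe in S211A vehicle and A_32_P120567 the brighter one with MDFIC, so that the rise itself decided which probe stands for the accession. The probes of this accession thus disagreed, and which part of the transcript each one reads is not given in the files. Whether A_32_P120567 reads RNA from a transfected plasmid was not tested, so that its rise cannot be taken as a response of the cells to MDFIC. NM_199072 is counted among the rises in what follows.

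On the Dex arrays, which the vehicle comparison does not use, A_32_P120567 of NM_199072 showed a similar gap. Its level there was -3.32 ± 0.09 (SD, n = 3) without MDFIC and 5.51 ± 0.45 (SD, n = 3) with it. A_23_P327022 was more variable under Dex with MDFIC, at -2.91, -1.92 and -3.17 in the 3 replicates, against -2.05, -2.38 and -2.37 in S211A Dex. The difference at A_32_P120567 under Dex was not shown to differ from that under vehicle: the test of it gave 0.12 (95% interval -0.45 to 0.70, limma adjusted p = 0.876).

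NM_001005567 came next by its fitted rise, which is taken against arrays that were not well above background, so that its rank among the rises is not established. Its only tested probe read 11.7, 11.3 and 7.40 intensity units in S211A vehicle, where no array was well above background, and 127, 168 and 134 in S211A+MDFIC vehicle, where all 3 were. The groups did not overlap. The signals bound the rise between these arrays at 7.73-fold or more, from the lowest signal well above background on each S211A array. These arrays lay on different slides and the bound takes no account of slide, so that it is no minimum for MDFIC itself. The fitted log2 difference was 3.70 (SE 0.50, limma adjusted p = 0.0101). Its S211A Dex arrays differed among themselves. It read 8.03 on slide 1, not well above background, and 46.8 and 17.2 on slide 2, well above background on both. The arrays of slide 2 thus lay 1.78 above that of slide 1 on the log2 scale, and since slide 1 holds 1 array there, array and slide cannot be told apart. Set against the S211A Dex arrays of slide 2 alone, the S211A+MDFIC Dex arrays lay 2.17 higher on the log2 scale. With slide as a fixed block the difference was 2.00 (SE 0.68) and did not pass (limma adjusted p = 0.403), and without S211A+MDFIC vehicle replicate 2 it did not pass either (log2 3.52, limma adjusted p = 0.063).

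NM_001337 fell most. Its level was -1.71, -1.65 and -1.75 in S211A vehicle replicates 1, 2 and 3, and -4.04, -4.00 and -4.16 in those of S211A+MDFIC vehicle. All 6 arrays were well above background, and the groups lay more than 2 log2 units apart. The difference was -2.37 (SE 0.08, limma adjusted p = 6.96e-07), a 5.16-fold fall, and it was -2.14 (SE 0.13, limma adjusted p = 0.000712) with slide as a fixed block. The S211A arrays of slide 2 lay only slightly below that of slide 1 under Dex, by a log2 difference of -0.18. Under Dex the levels were -2.48 ± 0.14 (SD, n = 3) without MDFIC and -4.79 ± 0.09 (SD, n = 3) with it, a difference of -2.31 (SE 0.08). The test of a change of the MDFIC difference with Dex gave 0.06 (95% interval -0.20 to 0.32, limma adjusted p = 0.862).

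AK097877 was the second of the falls. Its level was -3.16, -3.34 and -2.91 in S211A vehicle and -4.71, -4.36 and -4.51 in S211A+MDFIC vehicle. The groups did not overlap, but the spread within each, with an SD of 0.22 and 0.17, was wider than that of NM_001337. The difference was -1.39 (SE 0.17, limma adjusted p = 0.00658), or 2.62-fold. It did not shrink with slide as a fixed block, at -1.51, but its SE there was 0.36 and it did not pass (limma adjusted p = 0.241). Under Dex it stood at -1.08 (SE 0.17, limma adjusted p = 0.0372).

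**Figure D1:**
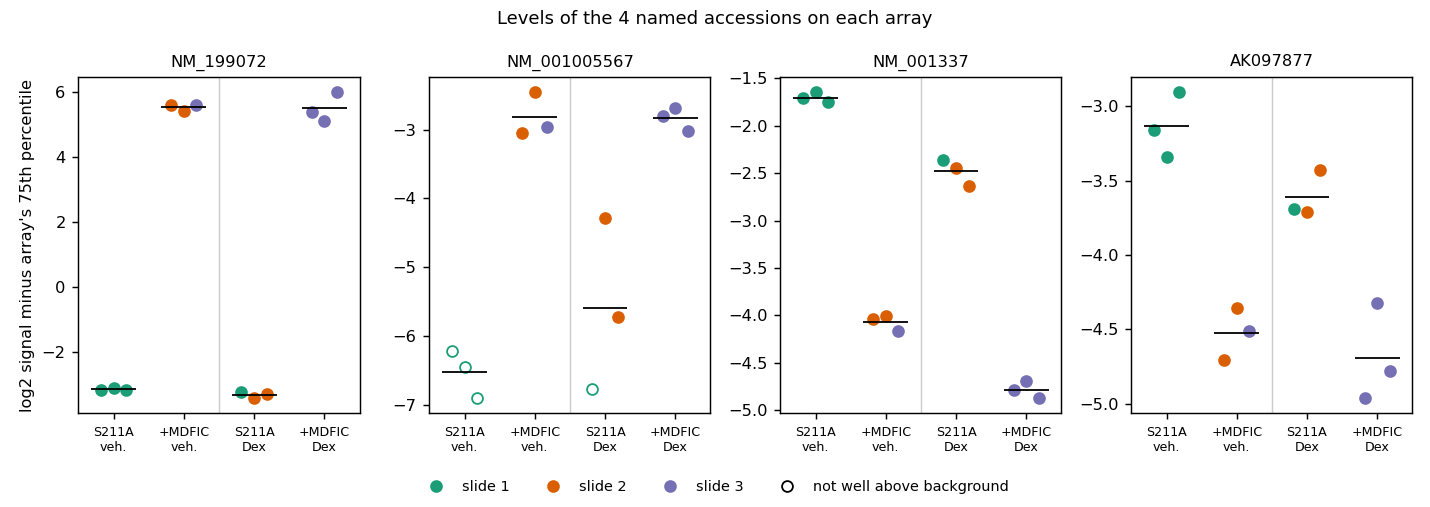
Level of each named accession (log2 signal minus the array's 75th percentile, at the reported probe) on all 12 arrays, by group. Points are arrays coloured by slide, open points are not well above background, and lines are group means. NM_199072 and NM_001337 keep their gap in both treatments, while the S211A Dex points of NM_001005567 differ between slide 1 and slide 2.

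In all, the S211A+MDFIC vehicle arrays differed from the S211A vehicle arrays, which lay on another slide, in 233 of 24586 accessions (0.948%). Of these 104 rose (0.423%) and 129 fell (0.525%). The median was 0.79 among the rises and -0.42 among the falls, and 44 rises and 7 falls reached 2-fold. Among the 75 accessions called with slide as a fixed block, of which 19 are among the 233, 13 rises and 50 falls reached 2-fold. Of the 104 rises 16 were well above background on all 3 S211A+MDFIC vehicle arrays and on no S211A vehicle array, so that their fitted values are taken against background, and 0 falls had the reverse pattern. Over all accessions the median difference was -0.01 and the median size of a difference 0.11. The groups of 3 arrays did not overlap in any of the 233, as in 28.8% of all accessions. The 233 were spread over the range of levels. By quartile of the mean level, from dim to bright, the rises numbered 26, 35, 31 and 12, and the falls 12, 39, 42 and 36. This division turned in the dimmest quartile with slide as a fixed block, where 2 rises and 13 falls passed. The median difference of all accessions was 0.09 in the dimmest quartile, and -0.02, -0.01 and -0.03 in the others.

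The calls fell on coding and on non-coding transcripts. Of 16443 accessions of RefSeq mRNAs 64 rose and 83 fell (0.894%). Of 953 accessions of RefSeq non-coding RNAs 6 rose and 8 fell, which is 1.47%. Among 1254 Ensembl transcripts there were 7 rises and 5 falls (0.957%). Another 13 rises and 20 falls came from 2801 probes that the files name by the probe identifier alone (1.18%).

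**Figure D2:**
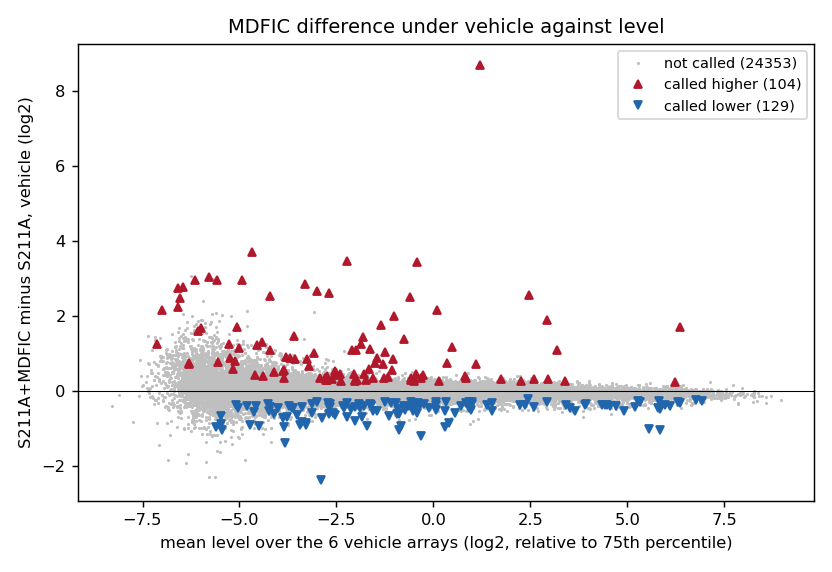
Difference S211A+MDFIC minus S211A under vehicle (log2) against the mean level over the 6 vehicle arrays (log2, relative to the 75th percentile), 1 point per accession tested. Upward triangles are the 104 called rises and downward triangles the 129 called falls. Of the rises 44 lie at 2-fold or more, and of the falls 7. In the fit with slide as a fixed block 75 accessions were called, 19 of them among those marked here, and 13 rises and 50 falls reached 2-fold.

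Fewer arrays in a group also mean less precision, and the number called changed with any single array left out. It was 80, 153 and 125 when S211A vehicle replicate 1, 2 or 3 was left out, and 67, 65 and 101 when S211A+MDFIC vehicle replicate 1, 2 or 3 was left out. Leaving out S211A Dex replicate 3, which enters through the spread alone, lowered the count to 132, and it rose to 442 without S211A+MDFIC Dex replicate 2. Most calls of the 6 fits without a vehicle array were among the 233, from 64 of 65 to 114 of 153. The signal scale mattered as well: without any scaling between arrays 58 rose and 14 fell, where the median of all accessions was shifted by 0.12. Normexp background correction left 107 calls, 98 of them among the 233.

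**Figure D3:**
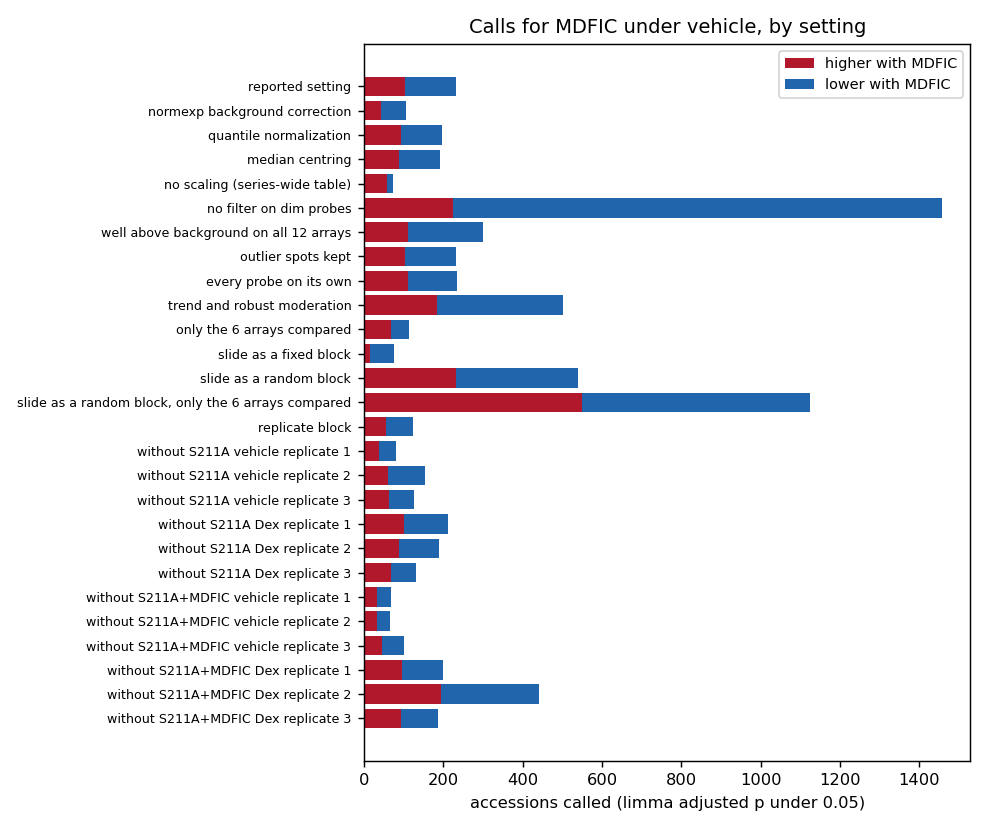
Number of accessions called for MDFIC under vehicle (limma adjusted p under 0.05) in each setting, split into those higher and lower with MDFIC. Leaving out any single vehicle array gives a shorter bar than the reported 233, and dropping the filter on dim probes gives 1456, mostly lower.

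Since the groups lay on different slides, slide was entered as a fixed block, with slide differences taken from conditions that span 2 slides. Slide 1 is tied to the other slides by S211A Dex replicate 1 alone, so that every difference with the block rests on that array. With the block 75 accessions passed (0.305%), 14 of them higher (0.0569%) and 61 lower (0.248%). All 233 kept their directions, and 187 of them had an unadjusted p under 0.05 with the block. Only 19 passed in both fits, 11 rises and 8 falls. No rise under 2-fold passed with the block, against 11 of the 44 larger ones, and the falls that passed were 0 of 92 under 1.5-fold, 5 of 30 between 1.5- and 2-fold and 3 of 7 beyond. The median SE over all accessions was 0.18 with the block and 0.10 without it.

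The 19 were mostly large changes of well detected transcripts. The 11 rises ran from 1.11 to 8.70 on the log2 scale without the block and from 1.35 to 8.80 with it. The upper end is NM_199072 in both fits. The 8 falls ran from -2.37 to -0.62 without it and from -2.14 to -0.89 with it. Of the 19, 18 were well above background on all 12 arrays. NM_199072 and NM_001337 were among them.

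The other 56 accessions that passed with the block were not called without it, and 53 of them were falls. Over the 53 the median difference was -0.06 without and -1.72 with the block. In S211A Dex their slide 2 arrays lay a median of 1.67 above the slide 1 array, where the median over all accessions was 0.03. Slide 1 is represented in that condition by replicate 1 alone, so that these 53 calls rest on 1 array. The values of the 19 with the block rest on it too. A difference of that array cannot be told apart from a difference of the slide.

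**Figure D4:**
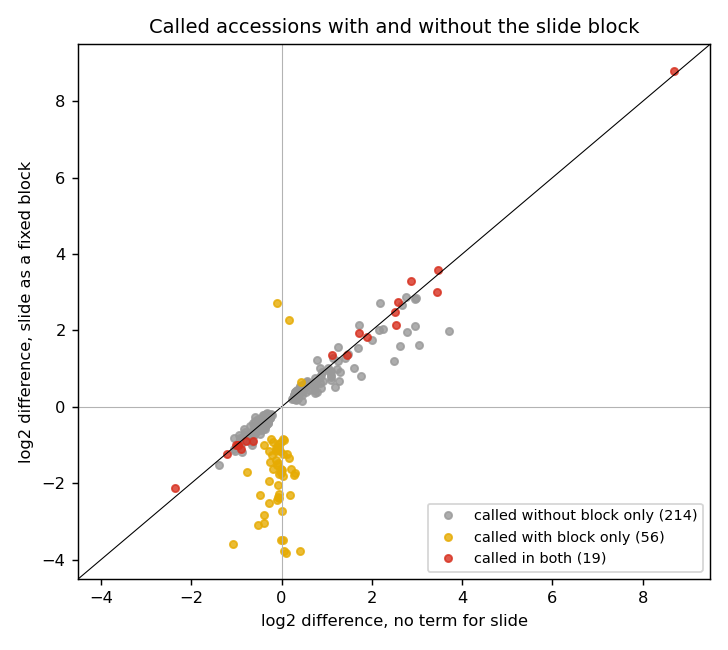
Difference under vehicle (log2, S211A+MDFIC minus S211A) without a term for slide and with slide as a fixed block, for accessions called in at least 1 fit. The line marks equal values. The 19 accessions called in both lie near the line, while the 56 called with the block alone gather near 0 on the horizontal axis. On the vertical axis 53 of these 56 have values below 0 and 3 above it. The lowest values, down to -4.95, fall outside the plotted range.

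The called accessions were then read on arrays of other cultures and between other slides. Under Dex, S211A replicates 2 and 3 lay on slide 2 and all S211A+MDFIC arrays on slide 3. This contrast leaves out slide 1 and shares no array with the vehicle comparison. Its groups again lay on different slides, so that MDFIC and slide cannot be told apart in it. Of the 104 rises, 94 (90.4%) were higher with MDFIC there too, against 47.2% of all accessions. Of the 129 falls, 86.8% were lower there, against 52.8%. In 75 of the 104 rises (72.1%) the arrays did not overlap in that direction, against 10.3% of all accessions, and in 93 of the 129 falls (72.1%), against 12.8%. The medians there were 0.43 for the rises and -0.22 for the falls. The 233 were chosen by their differences under vehicle, which favours larger values under vehicle than on arrays that did not choose them. The fit that chose the 233 used the spread of the Dex arrays too, which favours accessions whose Dex arrays lie close together.

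Accessions chosen without the Dex arrays gave similar shares. In a fit of the 6 vehicle arrays alone 69 accessions rose and 45 fell. On the same Dex arrays of slides 2 and 3, 57 of these 69 were higher and 47 (68.1%) were higher without overlap, and 42 of the 45 were lower and 32 (71.1%) were lower without overlap. Their median difference was 1.01 under vehicle and 0.66 under Dex for the rises, and -0.72 and -0.38 for the falls, where the choice again favours the vehicle values.

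**Figure D5:**
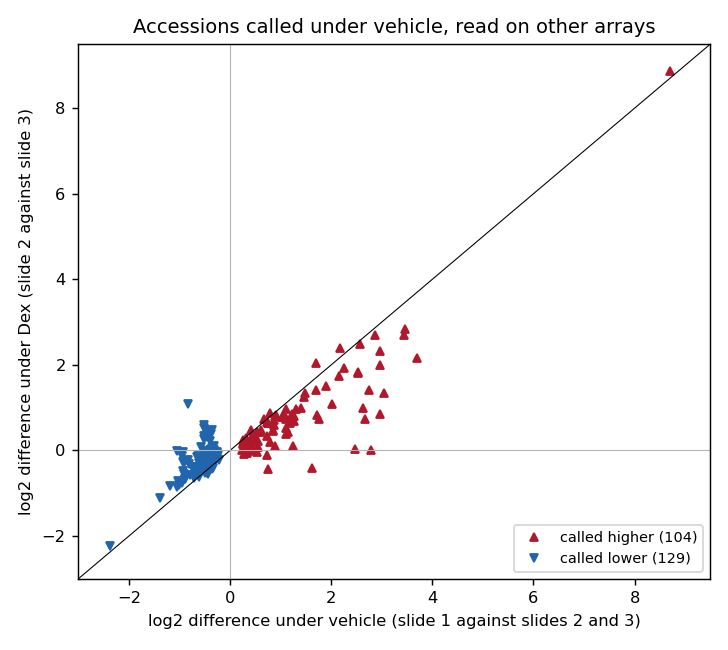
Difference with MDFIC (log2) under vehicle, horizontal, and under Dex between S211A replicates 2 and 3 on slide 2 and the 3 S211A+MDFIC arrays on slide 3, vertical, for the 233 accessions called under vehicle. The line marks equal values. Of the 104 rises 94 lie above 0 on the vertical axis, and 17 of the 129 falls do. The choice by vehicle differences favours larger values on the horizontal axis.

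Across both treatments some transcripts separated all 6 S211A+MDFIC arrays from all 6 S211A arrays. This held for 67 of the 104 rises (64.4%) and 61 of the 129 falls (47.3%), against 0.736% and 1.11% of all accessions. All 233 already separated 3 against 3 on the vehicle arrays that chose them, so that this part is built in and the shares of all accessions are no baseline for it. It held for all 11 rises and for 7 of the 8 falls that passed with the slide block. All 19 also passed the limma test of MDFIC under Dex in the same direction, where 0.427% of all accessions passed, 0.264% as rises and 0.163% as falls. That fit shares its estimate of the spread with the one that chose them. With slide as a fixed block 6 of the 19 passed under Dex, of 12 accessions in all, and with the 6 Dex arrays alone 8 of the 19, of 9 in all. Their medians were 2.54 under vehicle and 1.99 under Dex for the 11 rises, and -0.96 and -0.75 for the 8 falls, and these were chosen by the vehicle values as well.

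Detection differed between the groups in 1 direction. Of the accessions tested, 571 were well above background on the 3 S211A+MDFIC vehicle arrays and on no S211A vehicle array, and 1 showed the reverse. In S211A Dex 34.7% of the 571 were well above background on the array of slide 1, and 72.7% on both arrays of slide 2. The 571 were picked for no detection on the vehicle arrays of slide 1, which S211A Dex replicate 1 alone shares, and array and slide cannot be told apart. Of the 104 called rises 16 had this pattern, NM_001005567 among them, and 0 of the 16 passed with slide as a fixed block. Of these 16, 9 were well above background on both S211A Dex arrays of slide 2, and 7 on neither. Of all 571, 26 were well above background on neither. Of the other called accessions, 81 rises and 128 falls were well above background on all 6 vehicle arrays.

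The MDFIC difference was also compared between vehicle and Dex. Of the 233, 14 passed the test of a change of the difference with Dex (the interaction of MDFIC and Dex), against 0.268% of all accessions, and 13 of the 14 were falls under vehicle. That test uses the vehicle arrays that chose the 233. None of the 14 passed it with slide as a fixed block, where 0.159% of all accessions passed. For the 233 the 95% interval of this change reached a median of 0.24 on the log2 scale to either side.

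Where an accession had several tested probes, the others were read beside the reported one. There were 45 such called accessions, and in 29 every other probe moved in the direction of the reported probe. The same share over all accessions with several probes was not computed, so that 29 of 45 has no baseline. For the 18 rises the median was 0.71 at the reported probe and 0.18 over the other probes, and for the 27 falls it was -0.40 and -0.07. The reported probe is the brightest over the 12 arrays and the one that was called, which favours a larger value there. NM_199072 is 1 of the 18.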

How the data were processed

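Cy3-labelled cRNA was read on Agilent arrays with 1 colour and human probes, as the file headers and the labels' protocols state. The deposited values are intensity readings, background-subtracted within each array by Feature Extraction (version 12.0.0.7 per the file headers). The authors' series-wide table held the same intensity values. Each of the 45015 spots carries deposited flags. Control spots (1639) were left out, 945 outlier spots over the 12 arrays were set to missing, and no spot was saturated. The log2 signal minus each array's 75th percentile was averaged per probe. Probes well above background on all 3 arrays of a group, with at least 2 values in each group, were tested, and the brightest stood for its accession, which left 24586. Group means were fitted over all 12 arrays with limma 3.58.1 in R 4.3.3 (Benjamini-Hochberg, two-sided). The fit was tested on simulated data that held no slide differences, so that the test does not bear on those. A bound sets the bright group's mean against, per dim array, the higher of its own signal and the lowest well above background.

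Comparisons, lists and the choice of members were made with earlier results of these data known. The rule for named genes was, without symbols, the 2 largest rises and the 2 largest falls among called accessions that do not overlap, leaving out probe identifiers. The gene lists by symbol and the MDFIC transcript by name were not analysed here. Alternatives covered background correction, scaling, filters, probes, variance moderation, samples in the fit, slide, replicate number and each array left out. Figures were drawn with matplotlib 3.10.9.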

Additional observations from a re-analysis of the deposited data

Results flagged for a closer look

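Of the 233 accessions called for MDFIC under vehicle, 14 had a difference that changed with Dex by limma's test of the interaction. The groups compared are the vehicle and the Dex cultures, and the test uses the vehicle arrays that chose the 233. Of the 14, 13 fell with MDFIC under vehicle, by log2 differences from -0.84 to -0.36, and under Dex their differences ran from -0.25 to 0.98 with a median of 0.40. The other one rose by 2.52 under vehicle and stood at 1.81 under Dex. The interaction test that chose the 14 uses these Dex values too, so that a gap between the vehicle and Dex differences is built in. All 14 were well above background on 12 arrays, and 0 of them passed the interaction test with slide as a fixed block, where 39 accessions passed (0.159%). Between the calls under vehicle and those under Dex, 5 accessions were called in opposite directions.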

How the results depend on the processing

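The count of 233 for MDFIC under vehicle moved to 107 with normexp, 72 without scaling, 1456 without a filter on dim probes, 502 with trend and robust moderation and 114 with the 6 vehicle arrays alone. A fixed block for slide gave 75 and a random one 539 over 12 arrays and 1125 over the 6 arrays, where the estimated correlation within slides was below 0 (-0.07 and -0.16), which shortens the standard errors. Of the 1456, 977 were well above background on no vehicle array, 966 of them lower. It lay between 65 and 442 with 1 array left out. Quantile normalization, median centring, the filter on all 12 arrays, outlier spots kept and every probe on its own kept it between 192 and 301. Deviations of same-numbered arrays correlated at -0.01, 0.25 and 0.07 under vehicle and at -0.26, -0.18 and 0.18 under Dex. These values do not settle whether replicate numbers pair the samples, and the replicate block gave 124. For MDFIC under Dex, 105 accessions were called. This moved to 32 without scaling, 65 without the filter, 256 with trend and robust moderation, 9 with the 6 Dex arrays alone, 12 with slide as a fixed block, and 223 and 15 with slide as a random block over 12 and 6 arrays. It lay between 36 and 731 with 1 array left out, the extremes without S211A Dex replicate 1 or S211A+MDFIC Dex replicate 1 (36 each) and without S211A+MDFIC Dex replicate 2. The replicate block gave 83. NM_199072 and NM_001337 passed in every setting, at 8.05 to 8.83 and -2.40 to -1.65. AK097877 passed in every setting but slide as a fixed block (-1.51), and stood at -0.82 with normexp. NM_001005567 failed with that block (2.00) and without S211A+MDFIC vehicle replicate 2 (3.52), stood at 0.999 with normexp, and has no value among probes well above background on all 12 arrays. The MDFIC transcript by name has no value under any setting.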

Other observations

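Control spots for spike-in RNA (10 probes with E1A in their names) were read apart from the comparison. The mean log2 intensity of the brighter ones was 13.8, 13.8 and 13.6 on S211A vehicle replicates 1, 2 and 3, and 13.7, 13.7 and 13.8 on those of S211A+MDFIC vehicle. The 75th percentile of the other spots was 870, 994 and 884 intensity units in the first group and 1049, 922 and 1040 in the second. The groups overlapped in both measures.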
